A study of Homo sapiens with 10 samples.

Results

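Integrins are the receptors with which cells hold on to matrix and to other cells, and the 36 genes described here encode them and the proteins that switch them on from inside the cell. The genes were taken by symbol from the 19590 genes of the RNA-Seq table, whatever their values, and comprise 18 integrin α subunits, 8 β subunits, 2 talins, 3 kindlins and 5 members of the complex of integrin-linked kinase (ILK) with PINCH and parvins. Their mRNA was compared between 4 control libraries and 4 IRF8 KO libraries of MV4-11, an established human acute myeloid leukemia line of monocytic type with an internal tandem duplication of FLT3. IRF8 is a transcription factor of the interferon regulatory factor family that acts in myeloid and lymphoid cells. Control cells had been infected with the control lentiviral CRISPR vector, and IRF8 KO cells came from clones that had been infected with a vector carrying a guide RNA to IRF8 and isolated by limited dilution. All cells carried the FLT3 duplication and a lentiviral vector, and infected cells had been selected with puromycin. The labels do not say which clone gave which IRF8 KO library, nor whether the replicates of a group were separate cultures, so that p-values measure only the spread between these libraries, which may be technical.

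An integrin is a pair of 1 α and 1 β subunit, and the α subunit largely decides what the pair binds. On leukocytes the β2 integrins (ITGB2 with ITGAL, ITGAM, ITGAX or ITGAD) bind ICAM proteins and complement fragments, whereas β1 and αV integrins bind collagen, laminin, fibronectin or vitronectin. Talins and kindlins attach to the short tail of the β subunit and together turn the receptor to its binding state, while ILK, PINCH and parvin form an adaptor that ties the bound receptor to actin.

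Promoter sequences are shown for ITGAM and ITGAV, the 2 subunits that rose most, for ITGA2, the subunit that fell most, and for ITGB5, whose promoter holds the sole match to an IRF motif. The sequences are from RefSeq, assembly GRCh38.p14, and each gives the 250 bases before the gene's start, 5′ to 3′ on the strand of the gene. The ITGAM window is chr16:31259725-31259974 on the plus strand, the ITGAV window chr2:186589806-186590055 on the plus strand, the ITGA2 window chr5:52989102-52989351 on the plus strand and the ITGB5 window chr3:124887685-124887934 on the minus strand. The table held 2 windows for ITGAV and 3 for ITGB5, of which 1 each is shown. Capitals mark GAGGAA, a purine-rich stretch with the GGAA core of ETS factors such as SPI1, on either strand in ITGAM and ITGAV, and the IRF motif (GAAA, any 2 bases, GAAA) in ITGB5.
ITGAM: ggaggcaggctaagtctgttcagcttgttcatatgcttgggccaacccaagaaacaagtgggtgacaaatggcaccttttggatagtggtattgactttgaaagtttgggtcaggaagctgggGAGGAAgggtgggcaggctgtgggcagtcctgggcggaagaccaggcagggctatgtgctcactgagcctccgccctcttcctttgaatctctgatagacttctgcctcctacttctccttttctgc
ITGAV: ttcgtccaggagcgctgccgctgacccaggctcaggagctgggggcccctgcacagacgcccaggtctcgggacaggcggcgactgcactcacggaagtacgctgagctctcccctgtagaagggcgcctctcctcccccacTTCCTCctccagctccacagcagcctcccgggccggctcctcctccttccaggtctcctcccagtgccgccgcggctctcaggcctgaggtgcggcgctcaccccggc
ITGA2: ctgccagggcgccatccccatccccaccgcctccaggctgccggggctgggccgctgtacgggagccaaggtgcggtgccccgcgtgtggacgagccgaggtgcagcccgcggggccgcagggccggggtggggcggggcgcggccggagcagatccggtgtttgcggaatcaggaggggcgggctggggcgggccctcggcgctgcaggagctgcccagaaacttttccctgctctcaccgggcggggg
ITGB5: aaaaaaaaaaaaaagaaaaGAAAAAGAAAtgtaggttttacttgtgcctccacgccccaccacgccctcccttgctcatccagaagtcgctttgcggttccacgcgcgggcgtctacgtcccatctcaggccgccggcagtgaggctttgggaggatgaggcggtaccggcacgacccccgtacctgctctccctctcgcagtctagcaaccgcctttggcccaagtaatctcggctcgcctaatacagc
Promoter windows of 300 bases, with 50 bases past the start, were found for 25 of the 36 genes, in 35 windows, and were searched on both strands. The composite ETS and IRF motif (GGAA, any 2 bases, GAAA) occurred in 0 of these 35 windows and in 2.82% of the 35116 windows of all genes. The IRF motif occurred in 1, that of ITGB5, where it lies 231 bases before the start within a stretch rich in A, against 3.57% of all windows. GAGGAA, which was added after the values were seen and can share its GGAA with the composite motif, occurred in 15 of 35 windows, belonging to 12 genes, and in 27.9% of all windows. These are letters in a window and not sites of binding. ITGA3, ITGA7, ITGA9, ITGAD, ITGAL, ITGAX, ITGB2, ITGB3, ITGB4, FERMT1 and PARVA had no window in the table.

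Values are normalized counts, that is reads per gene divided by a size factor of the library. Reads on genes numbered 48762519 to 65519047 in control libraries and 39560072 to 54048461 in IRF8 KO libraries. IRF8 itself had 36891, 15192, 43016 and 22535 normalized counts in control replicates 1 to 4 and 6377, 2401, 12903 and 7820 in IRF8 KO replicates 1 to 4, so that it was lower in every IRF8 KO library but not absent (log2 fold change -2.11 ± 0.51 SE, limma adjusted p = 0.022, and between 0.053 and 0.058 without control 1, control 3 or IRF8 KO 1). These values are of mRNA and do not measure the protein. The authors reported no IRF8 protein in the knockout clones by Western blot. They also reported that ChIP-qPCR no longer found IRF8 at its target genes. In both groups, replicates 2 and 4 stood apart from replicates 1 and 3. In 38.2% of the 13110 tested genes, replicates 2 and 4 were higher, or lower, than replicates 1 and 3 in both groups without overlap, and this held for 11 of the integrin genes, of which 10 were higher in replicates 2 and 4 (ITGAL, ITGAX, ITGAD, ITGA5, ITGA11, ITGA2B, ITGB1, ITGB2, FERMT2 and FERMT3) and PARVB was lower. Same-numbered libraries deviated together, as did replicate 1 with 3 and replicate 2 with 4. Values with the replicate number as a block are given where they change the call of a named gene. Of the 8 genes listed as monocytic markers, CSF1R had 3240 to 7184 normalized counts and CD33 2101 to 3565 over the 8 libraries. SPI1 had 7021 to 14377 and CSF3R 911 to 2525, whereas CD14 was low, with 1.88 to 25.6.

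Of the 36 genes, 32 were expressed, that is their mean over all 8 libraries reached 10 normalized counts. In 29 of these the mean reached 10 in both groups, and ITGA2, ITGB3 and FERMT1 passed through the control libraries alone. A gene was called changed at an adjusted p below 0.05 over all 13110 genes tested, and log2 fold changes, given as IRF8 KO minus control on the scale of log2(normalized count + 1), understate the change of low genes. By this rule 9 of the 32 genes were called, or 28.1%, where 18.2% of all tested genes were called. ITGAM, ITGAV, ITGA4 and PARVB rose, which is 4 genes where 8.65% of all tested genes were called higher, and ITGAL, ITGA2, ITGA7, TLN1 and FERMT1 fell, which is 5 genes where 9.56% were called lower. The median log2 fold change of the 32 genes was -0.09, beside -0.00094 over all tested genes, so the changes went both ways. In 12 of the 32 the control and IRF8 KO values did not overlap (background 25.3%), with 4 higher and 8 lower. The 8 include ITGA2, ITGB3 and FERMT1, and the 5 called lower include ITGA2 and FERMT1. Having passed the filter through the control libraries alone, these genes could be counted as lower but not as higher. At the rule of the study, 2-fold or more with an unadjusted p under 0.01, 6 passed (background 10.9%). With the replicate block 16 were called (background 28.7%), the same 9 and also ITGB1, which was higher, and ITGA3, ITGA6, ITGA2B, ITGB3, ITGB5 and FERMT2, which were lower. A term for replicates 1 and 3 against 2 and 4 also gave 16 (background 33.1%), edgeR gave 8 (background 17.8%), and DESeq2 gave 12 (background 25.9%), with ITGA3, ITGB5 and FERMT2 added to the 9. Bulk RNA does not tell fewer cells with a transcript from less transcript per cell.

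**Figure D1:**
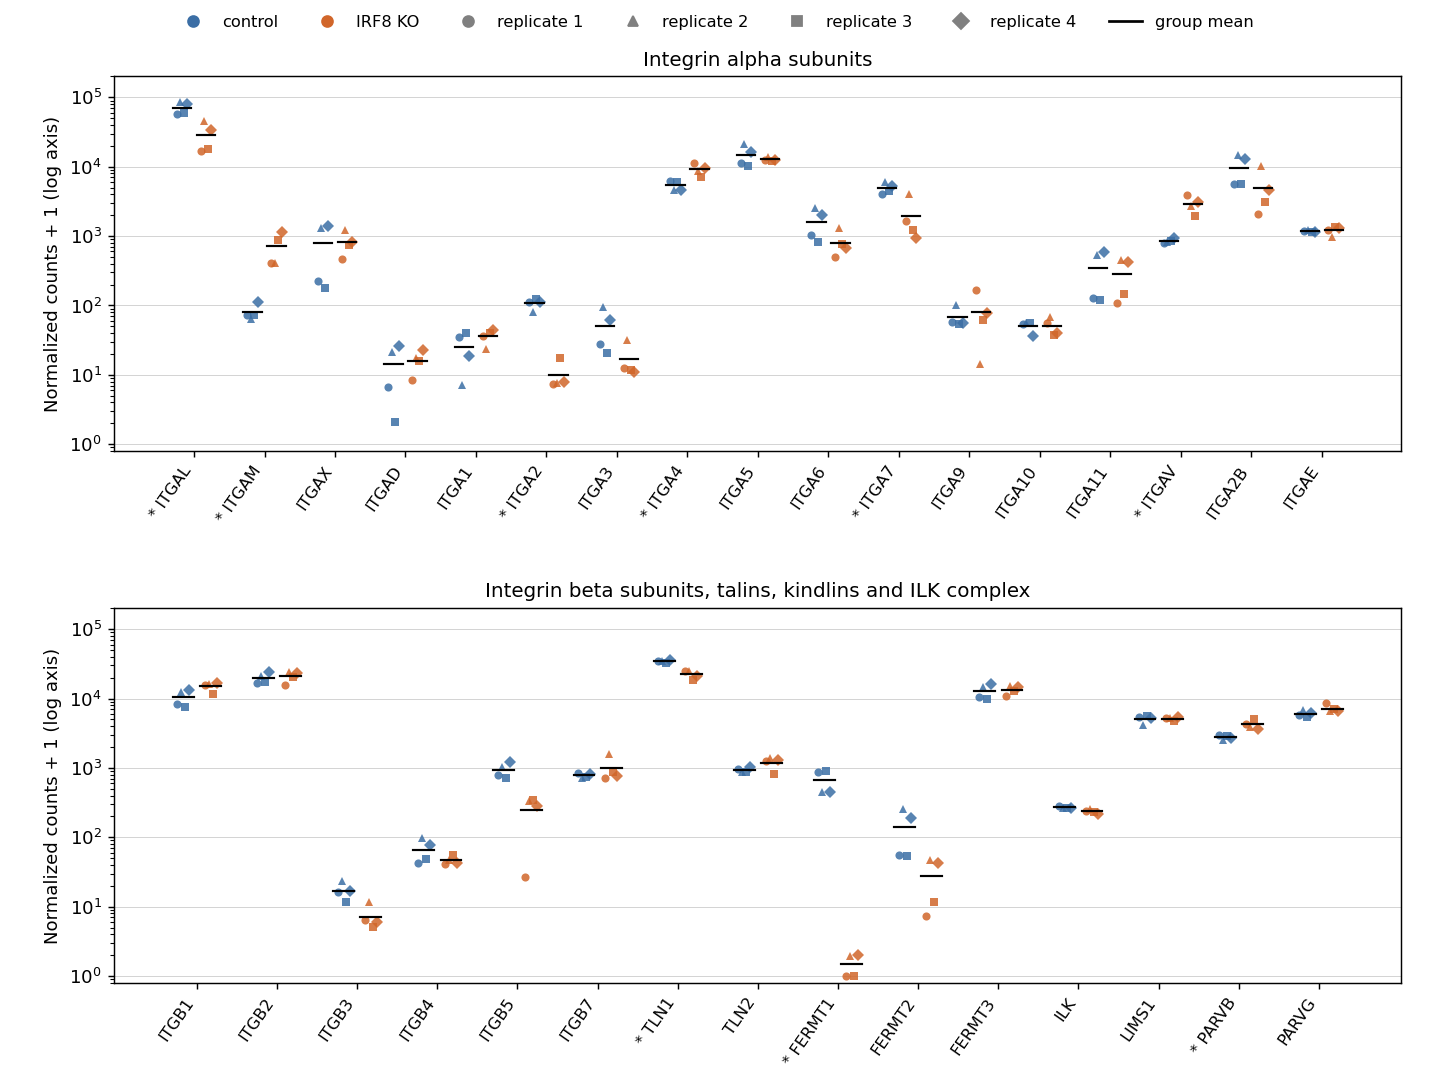
Normalized counts plus 1 (log axis) of the 32 expressed genes in each of the 8 libraries, with control in blue, IRF8 KO in orange, a marker shape for each replicate number and a black line for the mean of the group. Asterisks mark the 9 genes called by limma. The FERMT1 values fall from between 446 and 891 in control libraries to at most 0.984 in IRF8 KO libraries, and the ITGAM values do not overlap.

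Among the α partners of β2, ITGAM rose, ITGAL fell and the shared subunit ITGB2 was not called. ITGAM, the α chain of Mac-1 (CD11b) that serves phagocytosis and adhesion of monocytes and neutrophils, had 72.4, 62.1, 72.0 and 112 normalized counts in control replicates 1 to 4 and 406, 413, 868 and 1152 in IRF8 KO replicates 1 to 4. Every IRF8 KO library was above every control library, with a mean of 79.6 ± 22.1 (SD, n = 4) in control and 710 ± 366 (SD, n = 4) in IRF8 KO, a ratio of 8.91. The log2 fold change was 3.03 ± 0.38 (SE, limma adjusted p = 0.00098), with a range of 2.75 to 3.25 when any library was left out. ITGAL, the α chain of LFA-1 (CD11a) that binds ICAM proteins on other cells, had 56891, 84621, 60040 and 78963 normalized counts in control replicates 1 to 4 and 16699, 46308, 18265 and 34252 in IRF8 KO replicates 1 to 4. The groups did not overlap, and in both groups replicates 2 and 4 were the higher ones. The log2 fold change of ITGAL was -1.39 ± 0.33 (SE, limma adjusted p = 0.020), and the adjusted p rose above the threshold, to at most 0.055, without control 4 or IRF8 KO 3.

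ITGAX, the α chain of the dendritic cell and macrophage integrin CD11c, differed more with the replicate number than with the group. It had 224 and 177 normalized counts in control replicates 1 and 3 and 1320 and 1408 in control replicates 2 and 4, and between 467 and 1213 in the IRF8 KO libraries (log2 fold change 0.55 ± 0.71 SE, limma adjusted p = 0.66). The difference was 1.55 on the log2 scale within replicates 1 and 3 and -0.45 within replicates 2 and 4. ITGAD, which lies next to ITGAX and ITGAM on chromosome 16, was low, with 1.07 to 25.4 normalized counts in control and 7.46 to 21.6 in IRF8 KO libraries (limma adjusted p = 0.62). ITGB2 had 16739, 20857, 17147 and 24259 normalized counts in control replicates 1 to 4 and 15642, 24185, 20123 and 23358 in IRF8 KO replicates 1 to 4 (log2 fold change 0.07 ± 0.18 SE, limma adjusted p = 0.84). It lies on chromosome 21, whose 115 other tested genes had log2 fold changes with a median of -0.36. Set against these genes, the difference of ITGB2 was 0.42, which was within the spread (exact permutation p = 0.11).

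**Figure D2:**
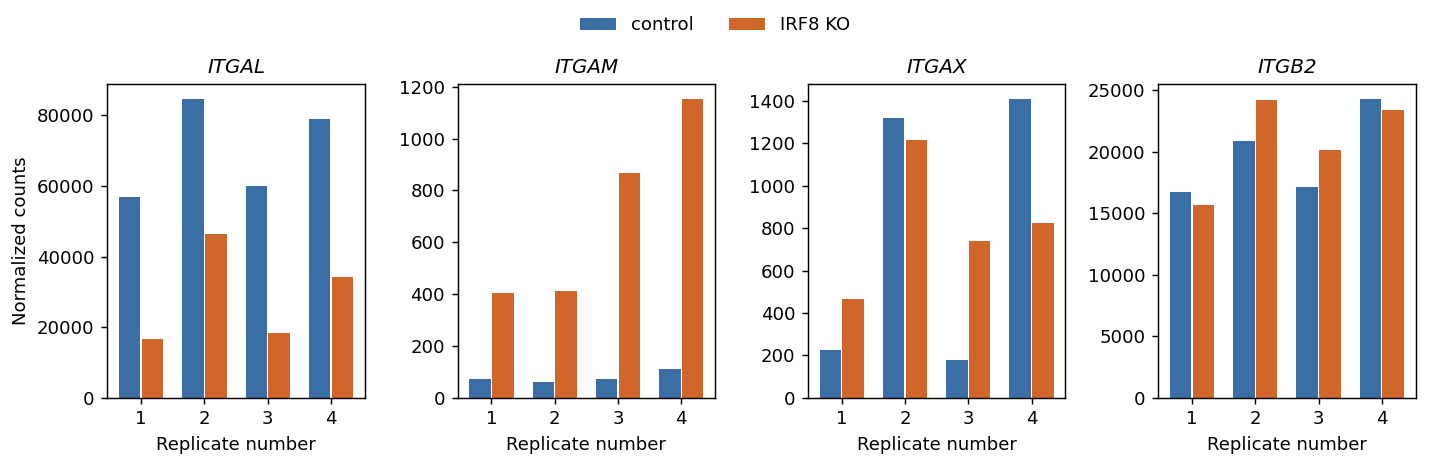
Normalized counts (linear axis from 0) of ITGAL, ITGAM, ITGAX and ITGB2 in control (blue) and IRF8 KO (orange) libraries by replicate number, 1 bar for each library. ITGAL is lower and ITGAM higher in IRF8 KO at each of the 4 numbers, whereas ITGAX is higher in IRF8 KO at numbers 1 and 3 and lower at numbers 2 and 4.

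Some marker genes of blood cells were called as well. Of the 8 monocytic markers 2 were called (25%, beside 18.2% of all tested genes), CD68 (log2 fold change 1.83) and the Fc receptor gene FCGR1A (0.89), both higher. With the replicate block 5 were called (background 28.7%), with LYZ (3.09, limma adjusted p = 0.060, and 0.0021 with the block) and CD14 (1.35, 0.11 and 0.048) higher and CD33 (-0.34, 0.18 and 0.049) lower. CSF1R had a log2 fold change of -0.27 (limma adjusted p = 0.46). The summed level of the 8 was 25541 to 37322 normalized counts in control and 46054 to 283069 in IRF8 KO libraries, the highest through LYZ in IRF8 KO 1. Of 6 lymphocyte markers 2 were tested. NCAM1 was called lower (log2 fold change -2.24, limma adjusted p = 0.038), with 5207 to 18500 normalized counts in control and 687 to 5332 in IRF8 KO libraries. The summed level of the list was 5275 to 18583 in control and 729 to 5358 in IRF8 KO libraries, and MS4A1 was at 0 in all libraries. The call of NCAM1 was lost without any 1 of 6 libraries (limma adjusted p up to 0.095). The part of these cell type markers in the changes of ITGAM and ITGAL was not tested.

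Of the collagen, laminin and fibronectin receptors that pair with β1, ITGA2 and ITGA7 fell and ITGA4 rose. ITGA2, the α chain of a collagen receptor, had 110, 78.5, 123 and 111 normalized counts in control replicates 1 to 4 and 6.39, 6.69, 16.3 and 6.89 in IRF8 KO replicates 1 to 4. All IRF8 KO values were far below the control values (106 ± 19.2 against 9.06 ± 4.80, SD, n = 4 each), with a log2 fold change of -3.49 ± 0.35 (SE, limma adjusted p = 0.00036) that ranged from -3.78 to -3.38 with a library left out. ITGA7, the α chain of a laminin receptor best known from muscle, had 4068, 5939, 4434 and 5358 normalized counts in control replicates 1 to 4 and 1668, 4101, 1215 and 934 in IRF8 KO replicates 1 to 4. IRF8 KO 2 reached into the control range, so the groups overlapped. The log2 fold change of ITGA7 was -1.55 ± 0.41 (SE, limma adjusted p = 0.030). The call was lost with edgeR (adjusted p = 0.069) and without any library except IRF8 KO 2 (limma adjusted p up to 0.083), and without IRF8 KO 2 the adjusted p was 0.0011. ITGA7 overlaps BLOC1S1 in the annotation, and how reads of the overlap were counted is not given here.

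ITGA4, the α chain of VLA-4 that holds blood cells to VCAM1 and fibronectin, had 6241, 4617, 6043 and 4592 normalized counts in control replicates 1 to 4 and 11136, 8769, 7085 and 9584 in IRF8 KO replicates 1 to 4. The lowest IRF8 KO value lay above the highest control value, with a log2 fold change of 0.76 ± 0.17 (SE, limma adjusted p = 0.017) and the call was lost without IRF8 KO 4 (adjusted p = 0.0501). The shared partner ITGB1 had 8343, 12621, 7630 and 13075 normalized counts in control replicates 1 to 4 and 15653, 16327, 11578 and 17001 in IRF8 KO replicates 1 to 4. It was higher in IRF8 KO at each replicate number, but IRF8 KO 3 lay within the control range (log2 fold change 0.56 ± 0.21 SE, limma adjusted p = 0.11, and 0.013 with the replicate block). ITGA5, the α chain of the fibronectin receptor, had 10209 to 21090 normalized counts in control and 12218 to 13755 in IRF8 KO libraries (log2 fold change -0.14, limma adjusted p = 0.73).

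The laminin receptor genes ITGA3 and ITGA6 were lower at each replicate number and were called by limma with the replicate block or the term for replicates 1 and 3 against 2 and 4, but not without, and DESeq2 called ITGA3 but not ITGA6. ITGA3 had 26.5, 94, 19.3 and 61.2 normalized counts in control replicates 1 to 4 and 11.7, 30.6, 10.8 and 9.84 in IRF8 KO replicates 1 to 4 (log2 fold change -1.50 ± 0.57 SE, limma adjusted p = 0.11, and 0.024 with the replicate block). ITGA6 had 1026, 2576, 824 and 1981 normalized counts in control replicates 1 to 4 and 504, 1291, 764 and 670 in IRF8 KO replicates 1 to 4 (log2 fold change -0.92 ± 0.41 SE, limma adjusted p = 0.16, and 0.021 with the block). In both genes control replicates 2 and 4 were the highest of all libraries, and control replicates 1 and 3 overlapped the IRF8 KO values.

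Of the remaining β1 partners, all but ITGAV were not called. The collagen receptor genes ITGA1, ITGA10 and ITGA11 had 6.04 to 38.7, 34.8 to 55.2 and 119 to 589 normalized counts in control libraries and 22.9 to 43.3, 36.6 to 66.9 and 107 to 454 in IRF8 KO libraries. ITGA9 had 52.6 to 102 in control and 13.4 to 168 in IRF8 KO libraries. Limma adjusted p-values of these 4 genes were between 0.40 and 0.96, and ITGA9 differed more within the IRF8 KO libraries than between the groups. ITGA8 was at 0 in all control libraries and at most 4.06 in an IRF8 KO library. ITGA1 overlaps PELO and ITGA4 overlaps CERKL in the annotation.

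ITGAV was called higher. Of its partners, ITGB3 and ITGB5 were lower and ITGB1 was higher, but none of them was called. ITGAV, the α chain of vitronectin and fibronectin receptors that can also release TGFβ from its latent form, had 782, 813, 842 and 938 normalized counts in control replicates 1 to 4 and 3860, 2697, 1932 and 3129 in IRF8 KO replicates 1 to 4. The lowest IRF8 KO value was above the highest control value, with a ratio of means of 3.44 (844 ± 67.3 against 2905 ± 806, SD, n = 4 each). Its log2 fold change was 1.74 ± 0.20 (SE, limma adjusted p = 0.00068) and ranged from 1.59 to 1.92 with a library left out. ITGB5, the β chain of a vitronectin receptor, had 800, 1032, 712 and 1232 normalized counts in control replicates 1 to 4 and 25.6, 334, 345 and 283 in IRF8 KO replicates 1 to 4. All IRF8 KO values lay below the control values, but IRF8 KO 1 was far below the other three. The log2 fold change was -2.42 ± 0.77 (SE, limma adjusted p = 0.060, and 0.020 with the replicate block), and without IRF8 KO 1 it was -1.53 with an adjusted p of 0.0038.

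ITGB3, known from the fibrinogen receptor of platelets, was near the limit of detection, with 15.3, 22.4, 10.7 and 16.01 normalized counts in control replicates 1 to 4 and 5.33, 10.5, 4.06 and 4.92 in IRF8 KO replicates 1 to 4. The groups came within 1 count of each other without overlap (log2 fold change -1.28 ± 0.40 SE, limma adjusted p = 0.056, 0.038 with the replicate block and 0.029 without IRF8 KO 2). Its platelet partner ITGA2B had 5700, 14575, 5624 and 13016 normalized counts in control replicates 1 to 4 and 2085, 10101, 3073 and 4583 in IRF8 KO replicates 1 to 4. ITGA2B was lower in IRF8 KO at each number, yet IRF8 KO 2 lay between the low and the high control pair (log2 fold change -1.09 ± 0.51 SE, limma adjusted p = 0.19, 0.0044 with the replicate block and 0.045 without IRF8 KO 2). Of the 5 megakaryocyte and platelet markers, 1 passed the filter (GP1BA) and none was called, PF4 and PPBP were at 0 in all libraries, and the summed level of the list was 60.1 to 107 normalized counts in control and 75.8 to 157 in IRF8 KO libraries.

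The genes of the remaining β subunits were not called. ITGB7, which pairs with ITGA4 and ITGAE in homing to the gut, had 721 to 857 normalized counts in control and 718 to 1584 in IRF8 KO libraries (limma adjusted p = 0.54), the highest in IRF8 KO 2. ITGAE, the α chain that binds E-cadherin, had 1136 to 1206 in control and 962 to 1351 in IRF8 KO libraries (limma adjusted p = 0.88). ITGB4, the hemidesmosome subunit and partner of ITGA6, had 41.8 to 96.6 in control and 40.5 to 55.5 in IRF8 KO libraries (limma adjusted p = 0.40). ITGB6 and ITGB8, both partners of ITGAV, reached at most 3.82 and 2.82 normalized counts and were not tested. ITGAE overlaps P2RX5 and HASPIN, ITGB4 overlaps GALK1, and ITGB7 overlaps ZNF740.

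**Figure D3:**
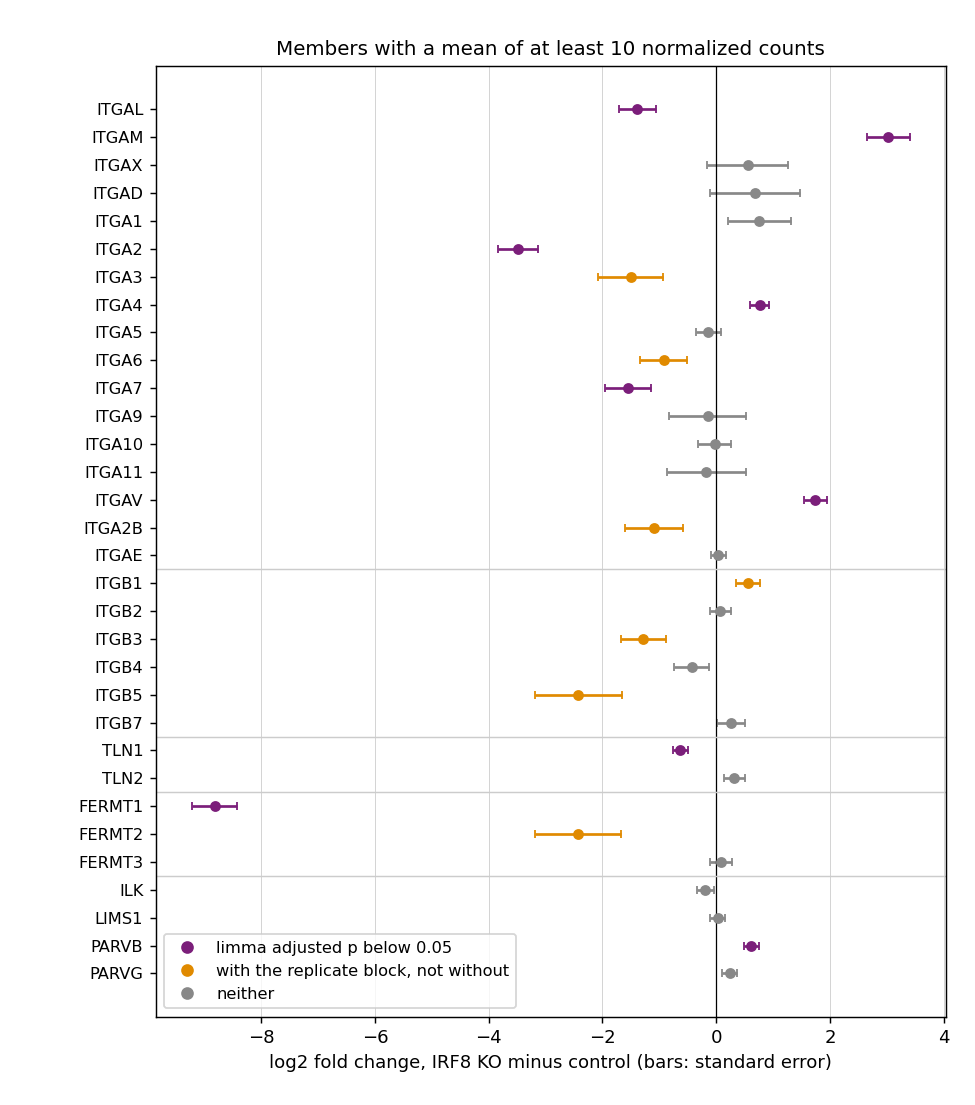
log2 fold change, IRF8 KO minus control, of the 32 expressed genes with the standard error as bars. Purple marks the 9 genes called by limma, orange the 7 that limma called with the replicate number as a block and not without it, and grey the rest, and FERMT1 lies farthest from 0 at -8.82.

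Since only assembled pairs reach the surface, the subunits were also compared pair by pair. Of 24 known pairs, 21 had both subunits expressed, the exceptions being ITGA8-ITGB1, ITGAV-ITGB6 and ITGAV-ITGB8. In 18 pairs the mean of both subunits reached 10 in each group, which leaves out the pairs of ITGA2 and ITGB3. In 12 of the 21 pairs neither subunit was called, in 9 the α subunit alone was called (6 higher and 3 lower), and in 0 both (limma). At an unadjusted p below 0.05 both passed in 7 pairs, and with edgeR and DESeq2 both were called in 0 and 1. With the replicate block both subunits were called in 9 pairs, 1 in 9 and neither in 3. In 3 of those 9 the subunits went the same way, ITGA4-ITGB1 and ITGAV-ITGB1 higher and ITGA2B-ITGB3 lower, and in 6 they went opposite ways. The pairs share subunits, 11 of them ITGB1, and are not independent of each other. No share over pairs of all genes was computed to set beside these counts.

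The log2 ratio of α to β counts within each library asked whether the 2 subunits of a pair changed unequally. The groups did not overlap in 10 of the 21 pairs (exact permutation p = 0.029 in each, not adjusted for the 21 pairs, and the smallest that 4 libraries against 4 allow), and in 8 of the 18 pairs expressed in both groups. The share among pairs of all genes was not computed, so these counts have no background. A ratio can separate the groups through 1 subunit alone, and 25.3% of single tested genes had groups without overlap. The ratio was higher in IRF8 KO for ITGAM-ITGB2 by 2.95, for ITGAV-ITGB5 by 4.17, for ITGAV-ITGB3 by 3.02 and for ITGAV-ITGB1 by 1.18. It was lower for ITGA2-ITGB1 (-4.06), ITGA7-ITGB1 (-2.12), ITGA3-ITGB1 (-2.07), ITGA6-ITGB1 (-1.49), ITGAL-ITGB2 (-1.46) and ITGA5-ITGB1 (-0.71). In ITGA4-ITGB1 (0.20, exact permutation p = 0.51) and ITGA2B-ITGB3 (0.19, exact permutation p = 0.69) the ratios overlapped between the groups. Counts were not divided by transcript length, so these are changes of a ratio and not the ratio of molecules.

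**Figure D4:**
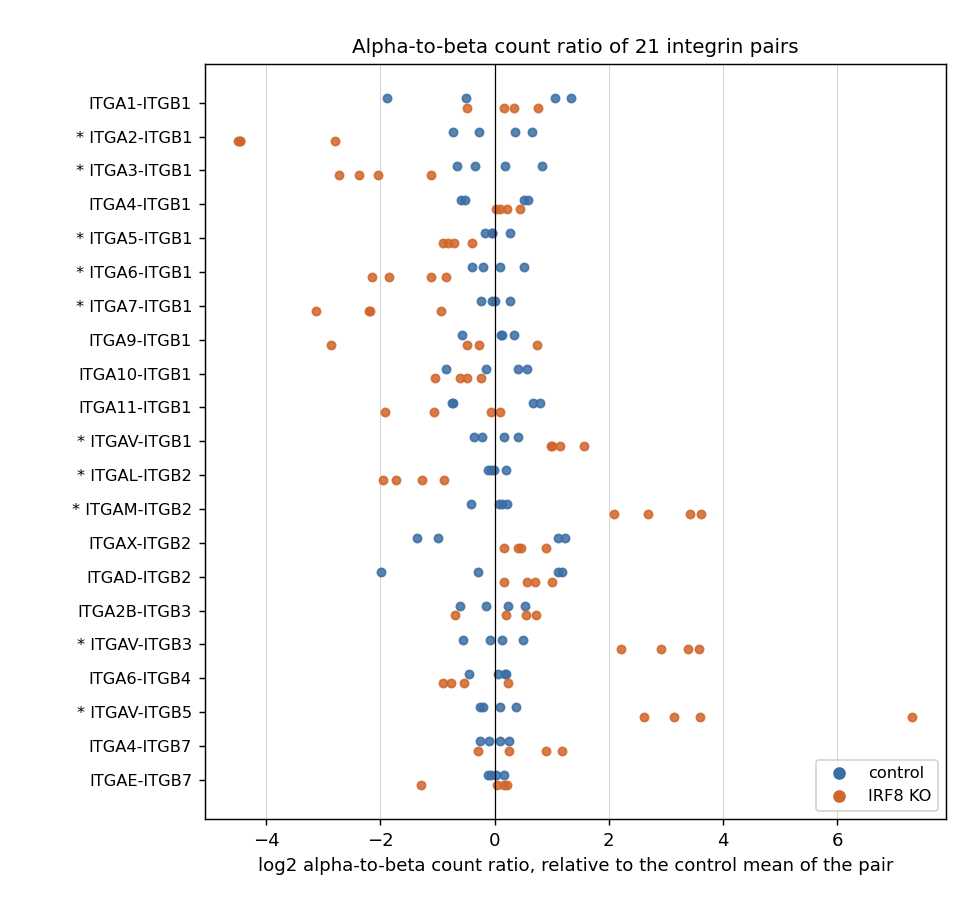
log2 ratio of α to β counts in each library for the 21 expressed pairs, relative to the control mean of the pair, with control libraries in blue and IRF8 KO libraries in orange. Asterisks mark the 10 pairs whose groups do not overlap, 4 higher and 6 lower in IRF8 KO, and ITGAV-ITGB5 reaches farthest to the right through IRF8 KO 1.

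Among the talins, TLN1 fell and TLN2 was not called. TLN1, the talin of blood cells that links β tails to actin, had 35292, 34594, 32519 and 35714 normalized counts in control replicates 1 to 4 and 25199, 25166, 18708 and 20936 in IRF8 KO replicates 1 to 4. The control libraries were close together and all above the IRF8 KO libraries (log2 fold change -0.63 ± 0.12 SE, limma adjusted p = 0.0086, and at most 0.031 with a library left out). TLN2 had 965, 874, 864 and 1019 normalized counts in control replicates 1 to 4 and 1237, 1383, 804 and 1300 in IRF8 KO replicates 1 to 4, where IRF8 KO 3 was the lowest of all 8 (log2 fold change 0.32 ± 0.18 SE, limma adjusted p = 0.28, and 0.032 without IRF8 KO 3). The log2 ratio of TLN2 to TLN1 was between -5.31 and -5.13 in control and between -4.54 and -4.01 in IRF8 KO libraries. This difference of 0.94 had an exact permutation p of 0.029, unadjusted and the smallest that 4 libraries against 4 allow. TLN1 alone separated the groups with the same exact permutation p, so the ratio says nothing further of TLN2.

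The 3 kindlins behaved differently from each other. FERMT3, the kindlin of blood cells without which leukocyte and platelet integrins cannot be activated, had 10511, 14634, 9921 and 16143 normalized counts in control replicates 1 to 4 and 10738, 15262, 12705 and 14812 in IRF8 KO replicates 1 to 4. Its values followed the replicate number in both groups (log2 fold change 0.08 ± 0.19 SE, limma adjusted p = 0.83). FERMT3 overlaps TRPT1. FERMT2, the widely expressed kindlin of focal adhesions, had 55.5, 257, 52.6 and 190 normalized counts in control replicates 1 to 4 and 6.39, 46.8, 10.8 and 41.3 in IRF8 KO replicates 1 to 4. Both groups were split by replicate number, but no IRF8 KO value reached the lowest control value (log2 fold change -2.43 ± 0.76 SE, limma adjusted p = 0.059, 0.0010 with the replicate block and 0.042 without IRF8 KO 2).

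FERMT1, the kindlin of epithelia, had 884, 446, 891 and 456 normalized counts in control replicates 1 to 4 and 0, 0.956, 0 and 0.984 in IRF8 KO replicates 1 to 4. The transcript was thus detected well in every control library and was almost undetected in IRF8 KO, where the 4 libraries held 2 reads against 2930 in the control libraries. Scaled to library size, IRF8 KO had 0.080% of the control level (95% exact interval 0.0097% to 0.29%, counting error only). The limma adjusted p was 6.6e-06 and the fitted log2 fold change -8.82 (standard error 0.40), a size that depends on the pseudocount. FERMT1 lies on chromosome 20, whose 344 other tested genes had log2 fold changes with a median of -0.92. Set against them, the log2 difference of FERMT1 was -7.90 (exact permutation p = 0.029), and 0 of these 344 genes had as low a log2 fold change. Of 5 epithelial and fibroblast markers 3 were tested, and the keratins KRT8 (log2 fold change -3.51) and KRT18 (-6.08) were called lower, while PDGFRB was not called (1.57, limma adjusted p = 0.30). EPCAM and COL1A2 reached at most 1.88 and 0.942. The summed level of that list was 1485 to 3804 normalized counts in control and 74.6 to 620 in IRF8 KO libraries. The part of these markers in the fall of FERMT1 and ITGA2 was not tested.

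In the ILK complex PARVB rose and its other expressed members were not called. PARVB, a parvin that joins ILK to actin, had 3026, 2502, 2866 and 2669 normalized counts in control replicates 1 to 4 and 4352, 3930, 5052 and 3672 in IRF8 KO replicates 1 to 4. The groups were well apart (log2 fold change 0.61 ± 0.13 SE, limma adjusted p = 0.012, and at most 0.038 with a library left out). PARVG, the blood cell parvin that neighbours PARVB on chromosome 22, had 5426 to 6756 in control and 6526 to 8652 in IRF8 KO libraries, with overlap (log2 fold change 0.24 ± 0.13 SE, limma adjusted p = 0.25). ILK, the scaffold of the complex, had 286, 266, 265 and 262 in control replicates 1 to 4 and 242, 254, 234 and 215 in IRF8 KO replicates 1 to 4. These values did not overlap, although the difference was small (log2 fold change -0.19 ± 0.15 SE, limma adjusted p = 0.44), and ILK overlaps TAF10. LIMS1, which encodes PINCH, had 4111 to 5625 in control and 4672 to 5468 in IRF8 KO libraries (log2 fold change 0.03, limma adjusted p = 0.92). PARVA was below the filter, with 8.85, 2.59, 13.96 and 1.88 normalized counts in control replicates 1 to 4 and 0, 0, 0 and 0.984 in IRF8 KO replicates 1 to 4. That is 1 read against 29, or 4.05% of the control level (95% exact interval 0.099% to 24.4%, counting error only). The interval leaves out the spread between libraries, which was wide in control.

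Of 45 further genes that regulate integrins or bind their tails, 40 were tested and 13 called (32.5%, beside 18.2% of all tested genes), 6 higher and 7 lower, and 18 with the replicate block (background 28.7%). Their median log2 fold change was -0.0045. Around the small GTPase RAP1, which recruits talin, FYB1 (ADAP, an adaptor that brings RAP1 to integrins in T cells and platelets) had 797 to 1365 normalized counts in control and 4698 to 10892 in IRF8 KO libraries (log2 fold change 2.77, limma adjusted p = 0.00036). APBB1IP (RIAM), which links RAP1 to talin, had 2721 to 3140 in control and 5105 to 6637 in IRF8 KO libraries (log2 fold change 1.06, limma adjusted p = 0.00058). RAP1A was called at a log2 fold change of 0.36 (limma adjusted p = 0.049), but was lost without any single library (0.059 to 0.13), with edgeR and with upper-quartile or quantile scaling, and RAP1B (0.17, limma adjusted p = 0.37) and the RAP1 exchange factor RASGRP2 (-0.28, limma adjusted p = 0.43) were not called. DAB2, an endocytic adaptor that competes for β tails, was called at 1.28 (limma adjusted p = 0.040) with overlapping groups, and was lost without any 1 of 5 libraries (up to 0.10) and with upper-quartile scaling.

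The tensin genes TNS1 and TNS2, and KANK2, were among the called genes that were lower. The tensin TNS1, which binds β tails, had 1408 to 3731 normalized counts in control and 81.0 to 906 in IRF8 KO libraries (log2 fold change -3.24 ± 0.71 SE, limma adjusted p = 0.014), and TNS2 had a log2 fold change of -1.03 (limma adjusted p = 0.023, and 0.051 to 0.064 without control 2, 3 or 4). KANK2, which binds talin, had 1920 to 2341 in control and 623 to 926 in IRF8 KO libraries (log2 fold change -1.52, limma adjusted p = 0.00032). The filamin gene FLNA, whose product holds integrins inactive, was called (-0.81, limma adjusted p = 0.041), but not with edgeR nor without any library other than IRF8 KO 1 (up to 0.11). Of the α-actinins, named after their values were seen, ACTN4 was called higher (0.55, limma adjusted p = 0.0090) and ACTN1 lower (-0.59, limma adjusted p = 0.0096). Vinculin (VCL, -0.64, limma adjusted p = 0.10, 0.013 with the replicate block and 0.034 without control 2) and zyxin (ZYX, 0.12, limma adjusted p = 0.70) were not called.

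Of 30 genes of integrin ligands and counter-receptors, 20 were tested and 4 called, all higher. The share of 20% is near the 18.2% of all tested genes, and the median log2 fold change was -0.16. THBS1, thrombospondin, which binds αV and β1 integrins, had 28.2, 25.0, 23.6 and 25.4 normalized counts in control replicates 1 to 4 and 2473, 73.6, 543 and 418 in IRF8 KO replicates 1 to 4. It rose in all 4 IRF8 KO libraries but over a wide range (log2 fold change 4.10 ± 0.87 SE, limma adjusted p = 0.012). LAMC1, the laminin γ1 chain, rose from between 4729 and 6458 to between 13689 and 19826 (log2 fold change 1.60, limma adjusted p = 0.00028), and F11R, the junctional molecule JAM-A that binds LFA-1, rose as well (1.62, limma adjusted p = 0.00997). Of the LFA-1 ligands, ICAM2 rose (0.94, limma adjusted p = 0.01003). ICAM1 had 1346, 5340, 1065 and 5822 normalized counts in control replicates 1 to 4 and 304, 1069, 432 and 1452 in IRF8 KO replicates 1 to 4 (-1.94, limma adjusted p = 0.091, and 0.00045 with the replicate block), and ICAM3 was not called (-0.18, limma adjusted p = 0.70). The ITGA4 ligands FN1 and VCAM1 gave no call, since FN1 had a log2 fold change of -0.33 (limma adjusted p = 0.44) and VCAM1 reached at most 1.97 normalized counts and was not tested.

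Of 11 tetraspanins and related partners of integrins in the membrane, all were tested and 3 called (27.3%, beside 18.2% of all tested genes), all higher, and 6 with the replicate block (background 28.7%). Their median log2 fold change was 0.49. CD63, of lysosomes and the cell surface, had a log2 fold change of 0.78 (limma adjusted p = 0.0035), CD47, the integrin-associated protein that binds thrombospondin, of 0.76 (limma adjusted p = 0.0058) and CD81 of 0.49 (limma adjusted p = 0.013). Their control and IRF8 KO values did not overlap.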

How the data were processed

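RNA-Seq of MV4-11 cells was analysed in 8 libraries, 4 control and 4 IRF8 KO. According to the methods, the authors aligned reads with RNA-Star 2.7.2b to GENCODE 32, counted them per gene with featureCounts 2.0.1 and normalized them with DESeq2. Which strand the counting used is not given here. The deposited signal is the count per gene and library divided by the library's size factor, for 19590 genes, of which 2197 were 0 throughout. Every column was assigned (0 left out), with a column named wild type taken as the control library of its number. Dividing by the value of 1 read gave whole reads for 100% of values within 0.01 reads. The authors' table of fold changes and p-values and the ChIP-Seq samples were not used.

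limma 3.58.1 in R 4.3.3 (trended, robust prior variance) was fitted to log2(normalized count + 1) of 13110 genes whose mean reached 10, with Benjamini-Hochberg adjustment over all of them. The procedure was tested on simulated data. Single values were compared with exact two-sided permutation tests (scipy 1.17.1). Alternatives were pseudocounts of 0.5 and 5, no filter and a mean of at least 100, upper-quartile and quantile scaling, edgeR 4.0.16 and DESeq2 1.42.0 on recovered reads, limma without the trend, the replicate block, the rule of the study, and leaving out each library. A term for replicates 1 and 3 against 2 and 4, the differences within these replicates and the motif GAGGAA were chosen after seeing the data. The members, pairs and lists were chosen with earlier results of these data known. All 36 genes are accounted for. Of the regulator, ligand and tetraspanin lists, called genes are named, at most 8 a list by size of the log2 fold change, and 12 more whatever their result, except that some genes of the lists are not reported here. Markers covered monocytic, megakaryocytic, lymphocyte, erythroid, and epithelial and fibroblast genes. None of the 4 erythroid genes passed the filter.

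The replicate numbers were checked for pairing. Across genes, deviations from the group mean correlated between the control and IRF8 KO library of a number at 0.368 (replicate 1), 0.478 (replicate 2), 0.452 (replicate 3) and 0.502 (replicate 4). Control 1 correlated more with IRF8 KO 3 (0.467) than with IRF8 KO 1 (0.368). Within replicates 1 and 3 the values thus do not show a pairing by single number. Within replicates 2 and 4 the same-number values were the higher ones. The labels do not say what a number marks. Replicate 1 also deviated with replicate 3 (0.467 and 0.406) and replicate 2 with replicate 4 (0.411 and 0.396).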

Additional observations from a re-analysis of the deposited data

Results flagged for a closer look

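Among 138 groups of 4 libraries, for the 32 expressed genes, IRF8 and the other named genes, 6 held a library whose distance to the nearest of the others took up more of the group's range than Dixon's critical value for 4 values. Chance gives about 1 in 20 groups, or 6.9 of 138. ITGA2 in IRF8 KO 3 had 16.3 normalized counts where the other IRF8 KO libraries had 6.39 to 6.89. ITGA3 in IRF8 KO 2 had 30.6 against 9.84 to 11.7. ITGA9 in control 2 had 102 against 52.6 to 57.1. ITGA10 in control 4 had 34.8 against 53.9 to 55.2. ILK in control 1 had 286 against 262 to 266. LYZ, the lysozyme gene among the monocytic markers, had 248604 in IRF8 KO 1.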

How the results depend on the processing

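Of the 36 genes, 9 were called, 7 to 12 with a library left out, 8 with edgeR, 12 with DESeq2, 10 without a filter (adding PARVA), 8 at a mean of at least 100, 11 with quantile scaling, 10 without the trend and 6 by the rule of the study. With the replicate block 16 were called, as with the term for replicates 1 and 3 against 2 and 4 (16). Of the regulator, ligand and tetraspanin genes 20 were called, 15 to 19 with a library left out, 26 with DESeq2 and 29 with the replicate block. The log2 fold change of IRF8 ranged from -2.46 to -1.65 with a library left out. The block took none of the 9 calls away and, beside the 7 genes it added, changed no other call among the 32 expressed genes.

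Genes without a call that changed sign were ITGA9 (0.24 with edgeR, 0.26 with DESeq2), ITGA10 (0.11 with quantile scaling) and the ITGA2B-ITGB3 ratio (-0.17 with a pseudocount of 5). With a library left out, the log2 fold change ranged from -0.044 to 1.18 for ITGAD, -0.30 to 0.054 for ITGA5, -0.66 to 0.52 for ITGA9, -0.19 to 0.10 for ITGA10, -0.55 to 0.22 for ITGA11, -0.018 to 0.15 for ITGAE, -0.0057 to 0.20 for ITGB2, -0.0017 to 0.38 for ITGB7, -0.031 to 0.20 for FERMT3, -0.070 to 0.080 for LIMS1 and -0.0096 to 0.20 for ZYX. The cause was not tested.

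With a mean of at least 100, 23 genes counted as expressed. The share of each α subunit among the partners of a β subunit was not run, since transcript lengths were not used here, nor was the search for tail motifs. Values near 10 normalized counts rest on about as many reads.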
